A study of Mus musculus with 3 samples.

Results

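10 genes that encode secreted matrix, matricellular or surface-associated proteins are described here across BMP4-treated, noggin-treated and untreated mouse embryonic stem cells. They are Ccn1, Ccn2, Coch, Bgn, Ackr3, Anxa1, Pdgfc, S100a4, Fn1 and Thbs1, 10 of 18193 genes on the array, and they were picked by name largely for their difference between the BMP4 and untreated arrays. The values of that comparison therefore chose the members and are given as description. On the BMP4 array 3 of the 10, Coch, Ccn2 and Ccn1, were higher than on the untreated array, and 7 were lower: Bgn, Ackr3, Anxa1, Pdgfc, S100a4, Fn1 and Thbs1. The annotation paired 20 probe sets with these genes, 19 of them with 1 gene alone, and all 10 genes had at least 1 probe set above the floor described below.

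RNA came from R1, an established line of mouse embryonic stem cells, kept undifferentiated. The groups were cells given BMP4 at 20 ng/ml for 4 h, cells given noggin at 100 ng/ml for 4 h, and untreated cells, for which no time was given. Each group was 1 Affymetrix array, so no value has a replicate error, no test was possible and the number of arrays limits the precision. The sources used here do not name the medium, a feeder layer or the passage, and all groups shared the one cell line.

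BMP4 binds serine-threonine kinase receptors that phosphorylate SMAD1, SMAD5 and SMAD8, which enter the nucleus with SMAD4 and act on target genes. Noggin binds BMPs outside the cell and keeps them from their receptors. The extracellular matrix holds cells in place and stores growth factors, and matricellular proteins such as the CCN proteins and thrombospondins are secreted into it to modulate adhesion and growth factor access rather than to build fibres. BMP signalling acts together with LIF in the self-renewal of mouse embryonic stem cells.

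Values are log2 expression per probe set, and a difference of 1 is 2-fold. The floor was 3.44, the median of all values, and 11594 genes had a value above it on at least 1 array. A gene was represented by its brightest probe set paired with it alone. As a yardstick of spread among probe sets, the pooled SD of those of a gene around the mean of that gene was used. It was 0.13 in the BMP4 difference from untreated, 0.11 in that of noggin and 0.16 between the treated arrays (13666 probe sets, 5139 genes). Probe sets of a gene share the RNA, the labelling and the array, so this SD leaves out variation between arrays. A difference beyond it can still come from that variation. All 10 embryonic stem cell markers, Pou5f1, Sox2 and Nanog among them, were above the floor on every array, with medians of 11.16 with BMP4, 11.04 with noggin and 11.08 untreated. The treatment itself was visible in the Id genes, targets of BMP-SMAD signalling: Id2 differed by 4.10 with BMP4 and by −0.49 with noggin, Id3 by 3.58 and −0.26, and Id1 by 2.76 and −0.19. The other BMP-SMAD targets past 1.5-fold with BMP4 were Msx2 at 1.54, Gata2 at 0.99, Id4 at 0.84 and Smad6 at 0.67. The 24 probe sets for poly-A spikes, transcripts added before labelling, had BMP4 differences from −1.20 to −0.29, the direction of the 7 lower members, and their part in those differences was not tested. With noggin the spikes had a median difference of −0.18. Hybridisation spikes, added after labelling, had medians of 0.01 with BMP4 and −0.01 with noggin, over 18 probe sets.

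RefSeq promoter windows (GRCm38.p6), from 250 bases before to 50 after a transcription start, were matched for 7 of the 10 members, and 4 are shown so that higher members can be set beside lower ones. Ccn1 (chr3:145649936-145650235, minus strand) and Coch (chr12:51593091-51593390, plus strand) were higher with BMP4. Pdgfc (chr3:81036166-81036465, plus strand) and Ackr3 (chr1:90203730-90204029, plus strand) were lower. Capitals mark matches, on either strand, to 5 short motifs, none of which overlap another match in these windows.
Ccn1: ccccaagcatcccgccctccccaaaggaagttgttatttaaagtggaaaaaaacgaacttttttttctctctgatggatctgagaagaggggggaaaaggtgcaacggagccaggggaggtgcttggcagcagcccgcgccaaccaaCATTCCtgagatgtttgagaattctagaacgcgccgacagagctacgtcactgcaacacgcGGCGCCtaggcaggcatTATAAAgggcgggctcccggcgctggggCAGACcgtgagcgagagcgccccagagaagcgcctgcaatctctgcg
Coch: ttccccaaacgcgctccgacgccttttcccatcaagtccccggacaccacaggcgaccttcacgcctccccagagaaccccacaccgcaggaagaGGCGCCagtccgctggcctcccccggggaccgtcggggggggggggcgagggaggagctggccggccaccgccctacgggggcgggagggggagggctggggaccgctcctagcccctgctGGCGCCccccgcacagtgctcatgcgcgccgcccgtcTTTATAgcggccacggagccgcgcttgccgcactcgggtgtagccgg
Pdgfc: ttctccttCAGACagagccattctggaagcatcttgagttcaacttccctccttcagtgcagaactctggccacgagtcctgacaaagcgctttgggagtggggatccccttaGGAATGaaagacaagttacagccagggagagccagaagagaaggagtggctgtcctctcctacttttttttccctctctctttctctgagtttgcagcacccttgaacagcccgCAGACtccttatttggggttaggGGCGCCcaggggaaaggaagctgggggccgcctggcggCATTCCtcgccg
Ackr3: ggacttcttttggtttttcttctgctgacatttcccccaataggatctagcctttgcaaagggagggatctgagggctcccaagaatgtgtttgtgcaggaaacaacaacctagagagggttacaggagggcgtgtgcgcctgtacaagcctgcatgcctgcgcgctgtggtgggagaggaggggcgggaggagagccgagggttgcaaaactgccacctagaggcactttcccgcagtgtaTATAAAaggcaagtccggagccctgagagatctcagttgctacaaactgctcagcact
GGCGCC, a GC-rich sequence bound by SMAD1 and SMAD5 in BMP target genes, occurred at 2 places for Coch and at 1 place each for Ccn1 and Pdgfc, so it was found on both sides of the contrast. It was in 3 of the 7 member windows and in 11.9% of all 32851 windows of that length. G and C made up 73.7% of the Coch window, 57% of that of Ccn1 and 55% of that of Pdgfc. The median over all windows was 52.7%, and the part of base composition in these matches was not tested. CAGAC, a SMAD box, was in 4 of the 7 windows, those of Ccn1, Anxa1, Pdgfc and S100a4, and in 49.6% of all windows. GGAATG, the core of TEAD sites, was in 3, those of Ccn1, Anxa1 and Pdgfc, and in 14.7% of all. TGACTCA, an AP-1 site, was in 0 of the 7 and in 5.2% of all. Bgn and Ackr3 held none of these 4 motifs. The motif of a classical core promoter box, TATAAA, was added to the search after the sequences were seen. It was in 5 of the 7 windows, all but those of Bgn and Pdgfc, and in 13.6% of all. In 3 windows it lay on the coding strand 20 to 40 bases before the start, at 25 bases for Ccn1, 32 for Anxa1 and 31 for S100a4, against 1.99% of all windows. A match describes the letters only.

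The CCN proteins are described first. Ccn2, known as connective tissue growth factor, is a secreted matricellular protein and a common readout of TGF-beta signalling and of the coactivator YAP. Its probe set (1416953_at, Entrez Gene 14219) measured 6.97 with BMP4, 6.02 with noggin and 5.89 untreated. The BMP4 array stood apart from both others, with a 2.12-fold higher value than untreated. Ccn2 ranked number 11 from the top among the 11594 genes in BMP4 minus untreated. With noggin the difference was 0.13, close to the 0.11 spread among probe sets of a gene.

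Ccn1, the angiogenic matricellular protein once named Cyr61, was low on all arrays and its probe sets disagreed. The brightest (1416039_x_at, Entrez Gene 16007) measured 4.67 with BMP4, 4.67 with noggin and 4.33 untreated, so that it was 0.34 higher under both the ligand and its antagonist. The second above the floor, 1438133_a_at, measured 4.07 with BMP4 and 3.65 on both the noggin and untreated arrays, a difference of 0.42 with BMP4 alone. The suffix of the first marks probes that may bind other transcripts, and that of the second probes shared by transcripts of one gene. The remaining 2 probe sets, 1442340_x_at and 1457823_at, lay below the floor at 1.60 to 2.01 and differed by exactly 0.00 with BMP4. Their noggin differences were −0.40 each. Probe sets below the floor leaned that way in general: 57.8% of 14823 were lower on the noggin array than on the untreated array and 7.30% were higher.

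The other members of the CCN family, Ccn3, Ccn4, Ccn5 and Ccn6, were below the floor on all 3 arrays. Both measured CCN genes were higher with BMP4, and they are also targets of YAP and its DNA-binding partner TEAD. Of 20 measured genes in a list of YAP-TEAD targets, 7 were higher, 7 lower and 6 equal with BMP4, and the median of 0.00 was that of all measured genes. Of all measured genes 24.8% were higher and 35.6% lower. With the members Ccn1 and Ccn2 left out, 5 of 18 targets were higher, 7 lower and 6 equal. The counts of the whole list depended on the processing. With all probe sets of a gene averaged 10 of 16 were higher and 3 lower. Under a stricter floor, the 75th percentile, 5 of 6 were higher and 0 lower (median 0.21). Both of these counts include the member Ccn2, and the shares of all genes under those settings are not given here. Besides Ccn2, the list held 1 gene past 1.5-fold, Gadd45b, a stress-inducible gene that is also a SMAD target in other cells, at 0.66. Igfbp3, a secreted binding protein of insulin-like growth factors, was at 0.32 with BMP4 and at 0.25 with noggin. The junctional scaffold gene Amotl2 was at 0.19 and 0.14, and Lats2, a kinase that inhibits YAP, was equal on all arrays at 4.72. At the other end stood Fjx1, a secreted kinase-related protein, at −0.41 with BMP4, from a BMP4 value of 3.59 near the floor.

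Coch encodes cochlin, a secreted protein with von Willebrand factor A domains that is abundant in the matrix of the inner ear. Its probe set (1423285_at, Entrez Gene 12810) measured 7.48 with BMP4, 6.23 with noggin and 6.26 untreated. The BMP4 value was 2.33-fold higher than the untreated value, rank 8 from the top of all measured genes, and the noggin and untreated arrays differed by 0.03. Of 5 measured matrix proteins with such domains, Coch was the one above 0 with BMP4. Matn3 (matrilin 3), Col6a2 and Col6a3 (chains of collagen VI) were equal on all arrays, and Vwa1 differed by −0.03.

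**Figure D1:**
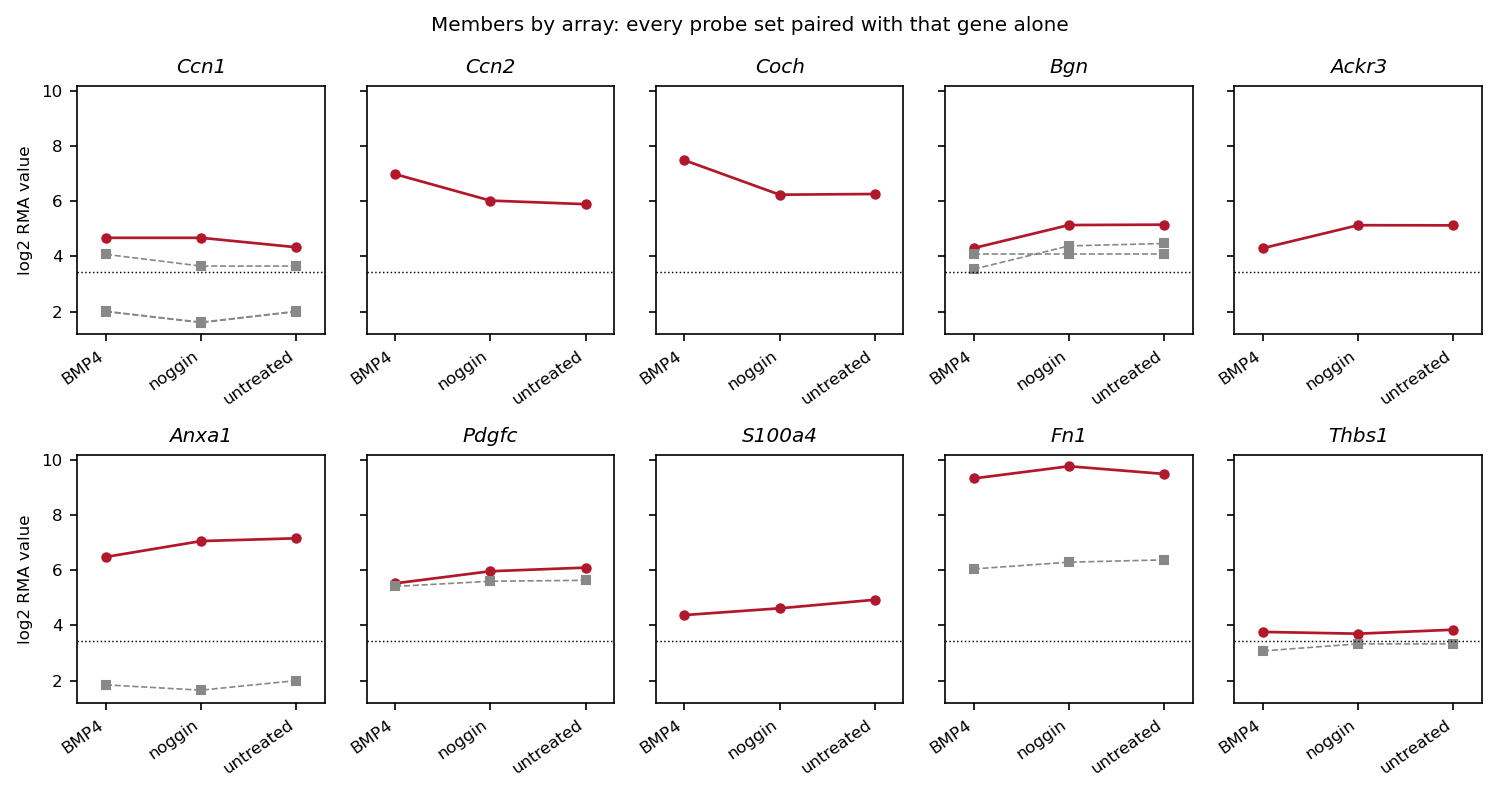
Log2 RMA value (vertical axis) of every probe set paired with 1 member alone, on the BMP4, noggin and untreated arrays (horizontal axis, 1 array each); red circles are the probe set that represents the gene, grey squares the others, and the dotted line is the floor of 3.44. Ccn2 and Coch stand higher on the BMP4 array alone, at 6.97 and 7.48, and Bgn, Ackr3 and Anxa1 lower on it, at 4.30, 4.30 and 6.48, whereas 1 probe set of Bgn is flat at 4.10.

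Among the lower members, Bgn encodes biglycan, a small leucine-rich proteoglycan that binds collagen and BMP and TGF-beta ligands. Its brightest probe set (1416405_at, Entrez Gene 12111) measured 4.30 with BMP4, 5.13 with noggin and 5.15 untreated, which made it 1.80-fold lower with BMP4 and rank 2 from the bottom of all measured genes. A second, 1448323_a_at, measured 3.54 with BMP4, 4.38 with noggin and 4.47 untreated, a difference of −0.93. The remaining one, 1437889_x_at, had 4.10 on all arrays. So 2 of the 3 probe sets were low on the BMP4 array alone. Of 5 measured proteoglycans of the class, Dcn (decorin), Prelp and Podn were equal on all arrays and Chad (chondroadherin) differed by −0.09.

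Ackr3, formerly Cxcr7, is an atypical chemokine receptor at the cell surface that takes up CXCL12 and signals through arrestins rather than G proteins. It had 1 probe set (1417625_s_at, Entrez Gene 12778), whose suffix marks probes shared by more than 1 transcript. It measured 4.30 with BMP4, 5.13 with noggin and 5.12 untreated, a value 1.77-fold lower with BMP4 and rank 3 from the bottom. The noggin and untreated arrays differed by 0.01.

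Other genes of the Ackr3 axis differed less with BMP4. Of 8 measured, including Ackr3, 2 were higher, 3 lower and 3 equal. With Ackr3 left out, 2 of 7 were higher, 2 lower and 3 equal, where 24.8% of all measured genes were higher and 35.6% lower. Adm, which encodes the peptide adrenomedullin that Ackr3 scavenges, was lower by 0.18 under both treatments. Ackr2, another atypical receptor, was highest at 0.07. Cxcr4 and Cxcl12, the signalling receptor and the shared ligand, were below the floor on all arrays. With noggin 6 of the 8 were lower, where 36.1% of all measured genes were, with a median of −0.18, or −0.12 with probe sets averaged and −0.11 with plain-suffix probe sets alone. Among them were Ackr2 at −0.29, Ackr4 at −0.25 and Ackr1 at −0.23. Those 3 lay between 3.33 and 4.39.

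Anxa1 encodes annexin A1, a calcium-dependent phospholipid-binding protein that is also released and acts on formyl peptide receptors. Its probe set 1448213_at (Entrez Gene 16952) measured 6.48 with BMP4, 7.05 with noggin and 7.15 untreated, a 1.60-fold lower value with BMP4. The other, 1444016_at, was below the floor on all arrays. Among the 8 measured annexins 4 were lower with BMP4, 1 higher and 3 equal. With Anxa1 left out, 3 of 7 were lower, 1 higher and 3 equal, where 35.6% of all measured genes were lower and 24.8% higher. Anxa3 came after Anxa1, at 4.40 with BMP4, 4.96 with noggin and 4.81 untreated, a difference of −0.42. Anxa2 differed by −0.08, Anxa6 was highest at 0.01, and Anxa5, Anxa7 and Anxa8 were equal on all arrays.

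Pdgfc encodes a platelet-derived growth factor that is secreted in latent form and, once cleaved, binds PDGF receptor alpha. The brighter probe set (1449351_s_at, Entrez Gene 54635) measured 5.52 with BMP4, 5.96 with noggin and 6.09 untreated, a 1.48-fold lower value with BMP4. The second, 1419123_a_at, ran the same way at less than that size, at 5.41 with BMP4, 5.60 with noggin and 5.63 untreated. Of the other ligands and receptors measured, Pdgfa differed by −0.09, and Pdgfb was equal on the BMP4 and untreated arrays. The receptor genes Pdgfra and Pdgfrb each had the same value on all arrays, 4.23 and 4.50.

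S100a4 encodes a small calcium-binding protein found in the cytoplasm and released by motile and mesenchymal cells. Its probe set (1424542_at, Entrez Gene 20198) measured 4.37 with BMP4, 4.62 with noggin and 4.93 untreated. It was therefore lower under both treatments, at −0.55 with BMP4 and −0.31 with noggin. Of 7 measured S100 genes 2 were lower with BMP4, 1 higher and 4 equal, where 35.6% of all measured genes were lower and 24.8% higher. With S100a4 left out, 1 of 6 was lower, 1 higher and 4 equal: S100a6 was at −0.11 and S100a10, the partner of annexin A2, at 0.02. S100a3 and S100a5, which flank S100a4 on chromosome 3, were below the floor.

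Fn1 encodes fibronectin, the fibril-forming glycoprotein that cells bind through integrins and syndecans. Its brightest probe set (1426642_at, Entrez Gene 14268) measured 9.32 with BMP4, 9.76 with noggin and 9.48 untreated. Fn1 was thus 0.16 lower with BMP4, 0.28 higher with noggin, and 0.44 lower on the BMP4 than on the noggin array. The second probe set, 1437218_at, measured 6.04 with BMP4, 6.29 with noggin and 6.37 untreated, lower with BMP4 by 0.33 but with −0.08 for noggin. The 2 probe sets had the same sign with BMP4 and opposite signs with noggin.

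Thbs1 encodes thrombospondin 1, a matricellular glycoprotein that activates latent TGF-beta and binds CD47. The brightest probe set paired with it alone (1450377_at, Entrez Gene 21825) lay near the floor, at 3.76 with BMP4, 3.70 with noggin and 3.84 untreated, a difference of −0.08 with BMP4 that is within the spread among probe sets. A second, 1460302_at, was below the floor on all arrays, at 3.07 with BMP4 and 3.33 on both other arrays. A further probe set, 1421811_at, is annotated to both Pald1 and Thbs1 and cannot be given to either. It measured 3.71 with BMP4, 4.31 with noggin and 4.47 untreated, a difference of −0.76. The probe set of Pald1 alone had 7.63 on all arrays; it was looked up after the shared probe set was seen. A lower value of Thbs1 with BMP4 therefore rests on a shared probe set and on values at or near the floor.

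Set side by side, 2 members, Coch and Ccn2, were at least 2-fold higher with BMP4, as were 0.0949% of measured genes. Bgn, Ackr3 and Anxa1 were at least 1.5-fold lower, as were 0.0518% of measured genes, which is 6 genes in all. At 1.5-fold, 0.224% of genes were higher with BMP4, and the members among them were again Coch and Ccn2. Because the genes were chosen on this comparison, nothing is read from these counts. The higher members ranged from 0.34 to 1.22 with a median of 1.09, and the lower members from −0.85 to −0.08 with a median of −0.57. The median over all measured genes was 0.00.

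The noggin array was not used to choose the members, although its comparison shares the untreated array. Of the 10 members 4 were higher with noggin and 6 lower, from −0.31 for S100a4 to 0.34 for Ccn1, with a median of −0.02. Of all measured genes 26.8% were higher with noggin, 36.1% lower and 37.0% equal. No member reached 1.5-fold in either direction, as 0.0776% of measured genes did. For the members past 1.5-fold with BMP4, the noggin differences were 0.13 for Ccn2, −0.03 for Coch, −0.01 for Bgn, 0.01 for Ackr3 and −0.10 for Anxa1. All but that of Ccn2 were within the 0.11 spread among probe sets of a gene. Pdgfc, at −0.57 with BMP4, was at −0.13 with noggin. A noggin difference of greater size was found in 15.2% of measured genes for Ccn2, 14.7% for Pdgfc and 20.5% for Anxa1. S100a4, Ccn1 and Fn1 differed more from untreated, with 1.54%, 1.02% and 2.33% of measured genes having a noggin difference of greater size.

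**Figure D2:**
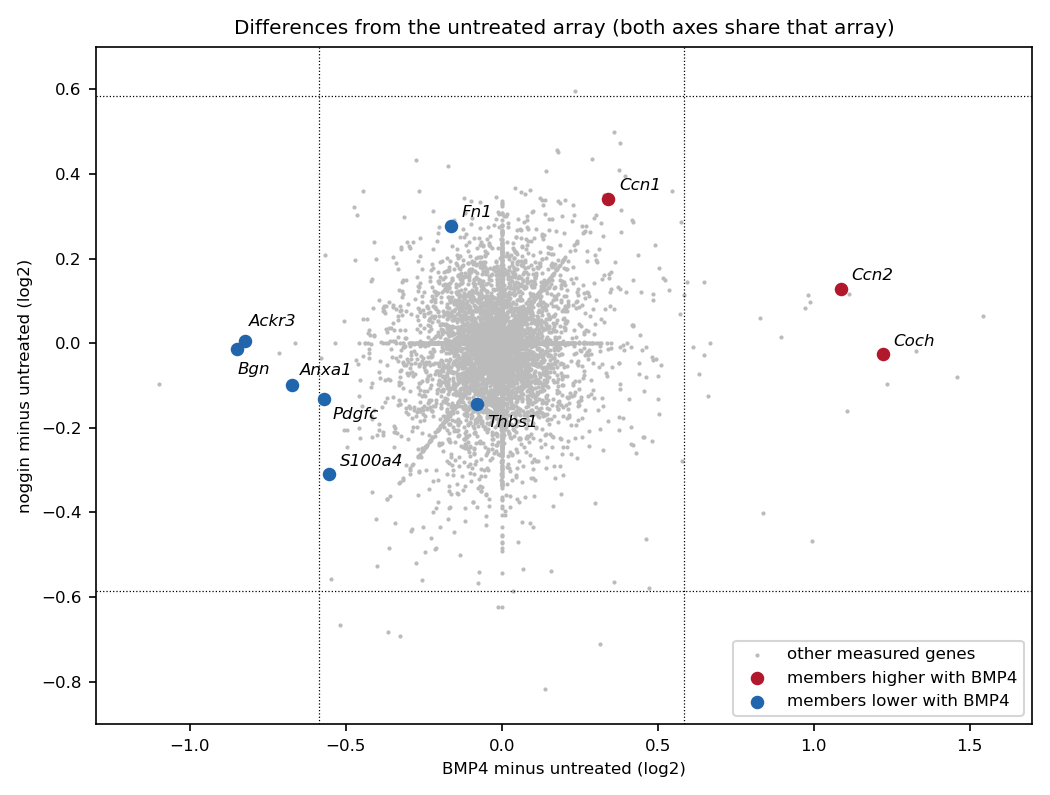
Difference from the untreated array with BMP4 (horizontal axis, log2) and with noggin (vertical axis, log2) for measured genes (grey), members higher with BMP4 (red) and members lower with BMP4 (blue); both axes share the untreated array, dotted lines mark 1.5-fold, and 3 genes lie outside the axes. Ccn2 and Coch stand to the right at 1.09 and 1.22 and Bgn and Ackr3 to the left at −0.85 and −0.82. On the noggin axis they stand at 0.13, −0.03, −0.01 and 0.01.

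Between the treated arrays, BMP4 minus noggin was 1.25 for Coch, 0.96 for Ccn2 and 0.00 for the brightest Ccn1 probe set. Coch and Ccn2 were at least 1.5-fold higher, as were 0.38% of measured genes. Bgn at −0.83 and Ackr3 at −0.83 were at least 1.5-fold lower, as were 0.138% of genes, and stood at ranks 2 and 3 from the bottom. Anxa1 followed at −0.57, just short of the 0.585 that equals 1.5-fold, then Fn1 and Pdgfc at −0.44 each and S100a4 at −0.24. Thbs1 was at 0.06, within the spread among probe sets. This comparison shares the BMP4 array with the one that chose the members.

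Genes with the most similar pair of differences were found by Euclidean distance in BMP4 minus untreated and noggin minus untreated, from 3 arrays. Nearest to Ccn2 were Dusp5, a phosphatase of ERK, at a distance of 0.03 and the transcription factor gene Sox7 at 0.10. Dusp5 measured 7.09 with BMP4, 6.09 with noggin and 5.98 untreated. Nearest to Coch were Malat1, a nuclear long non-coding RNA, at 0.07 and Dusp9, another MAP kinase phosphatase, at 0.11. Bgn and Ackr3 were each other's nearest gene, at 0.03, and Taf7l, a TAF7-like component of germ cell transcription, came next for both, at 0.13 for Bgn and 0.11 for Ackr3. For Anxa1 the nearest were Taf7l at 0.09 and Foxd3, a forkhead factor of pluripotent cells, at 0.10. For Pdgfc they were Gsn, which encodes the actin-severing protein gelsolin, and C130073F10Rik, at 0.10 each. For S100a4 they were 3110040M04Rik at 0.09 and Gsn at 0.12. Few genes lay that far from 0, which limits the choice of neighbours.

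The genes that flank Coch, Ccn2, Bgn, Ackr3 and Anxa1 in RefSeq did not show differences of their size. Over the neighbours of all members, the BMP4 difference ran from −0.11 for Znhit6, next to Ccn1, to 0.06 for Rorb, next to Anxa1. Rorb was itself below the floor. Cops8, beside Ackr3, was at −0.09. Atic, beside Fn1, had the signs of Fn1, at −0.04 with BMP4 and 0.03 with noggin. Scfd1 and Strn3, which flank Coch, were both at 0.00, as was Enpp3 beside Ccn2.

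**Figure D3:**
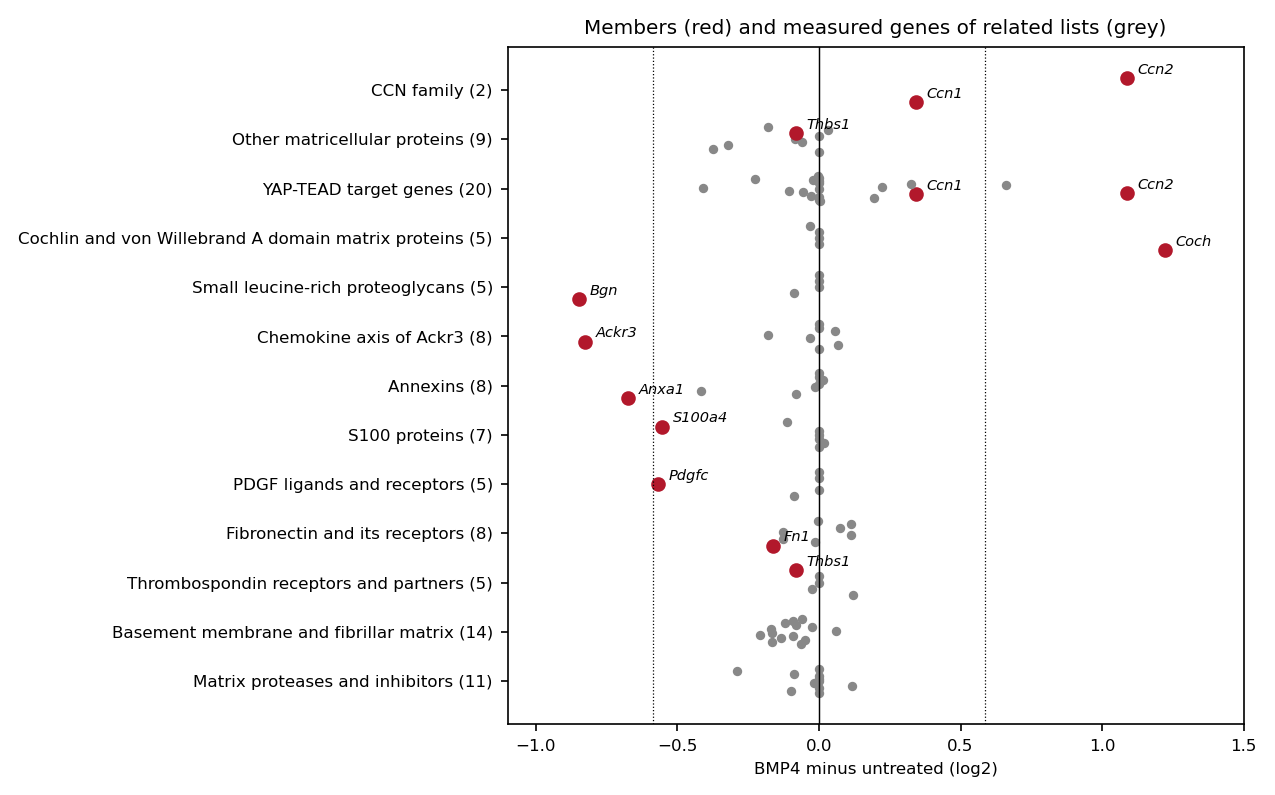
BMP4 minus untreated (horizontal axis, log2) for members (red, named) and for the other measured genes (grey) of 13 related gene lists, with the number measured in brackets; dotted lines mark 1.5-fold. Each of Coch, Bgn, Ackr3, S100a4 and Pdgfc stands away from the rest of its list, the nearest for Bgn being Chad at −0.09. Anxa1 has Anxa3 at −0.42 in its list, and Ccn2 has Gadd45b at 0.66 in that of YAP-TEAD targets. The members were picked largely for this difference, so their distance from the other genes is description only.

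Fn1 was then set beside the genes of basement membranes and fibrillar matrix, the sheet of laminin, collagen IV, nidogen and perlecan that embryonic stem cells and early endoderm deposit, and the fibrils it borders. Of 14 measured genes of that list 13 were lower with BMP4 and 1 was higher, with a median of −0.09, where 35.6% of all measured genes were lower and their median was 0.00. With noggin 9 were higher, 5 equal and 0 lower, with a median of 0.06, where 26.8% of all measured genes were higher. On the BMP4 array all 14, against 34.1% of all measured genes, were below their noggin value, with a median difference of −0.16. With probe sets averaged 11 of 12 were, with a median of −0.07. All 24 probe sets of the poly-A spikes were lower in BMP4 minus noggin too, at a median of −0.46, and their part in these differences was not tested. No gene of the list reached 1.5-fold in any of the comparisons, and most differences were near or under the spread among probe sets.

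The laminin chain gene Lama1 was closest to Fn1 in this. It measured 7.61 with BMP4, 8.05 with noggin and 7.78 untreated, so −0.17 and 0.27. Lamc1, the gamma chain, measured 7.77 with BMP4, 8.14 with noggin and 7.89 untreated. Eln (elastin) differed by −0.17 with BMP4 and 0.19 with noggin, from values near the floor. Hspg2 (perlecan) was the exception, higher with BMP4 by 0.06 and with noggin by 0.10, and Col5a2 was lowest with BMP4 at −0.21. The laminin and collagen genes were chosen for the list with earlier values in view, and the comparisons share arrays.

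**Figure D4:**
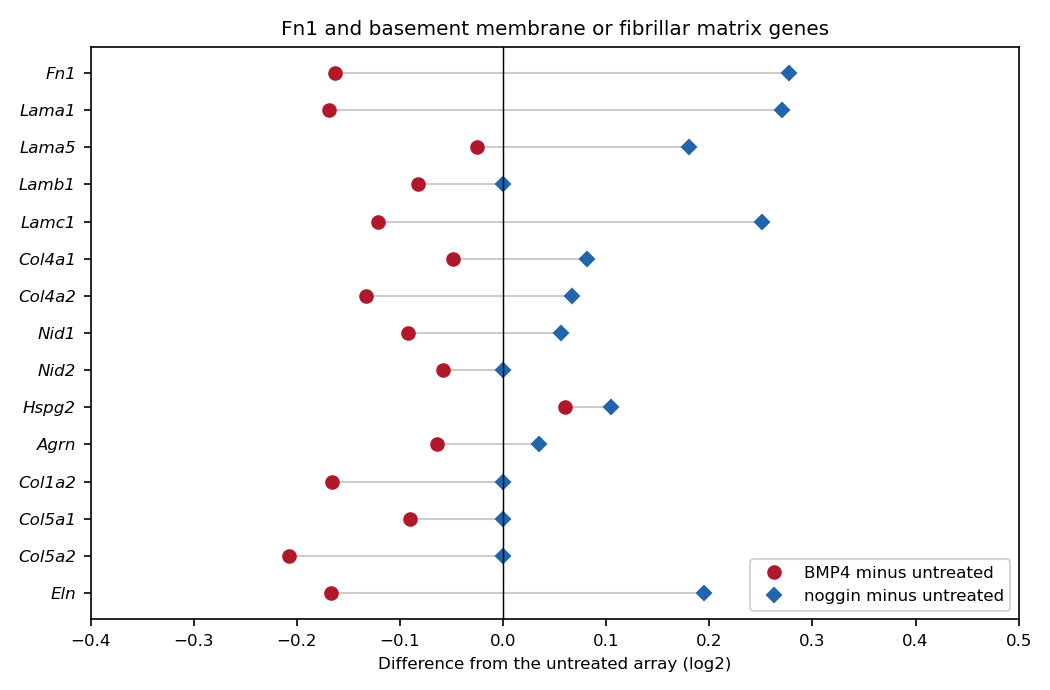
Difference from the untreated array (horizontal axis, log2) with BMP4 (red circles) and noggin (blue diamonds) for Fn1 and the 14 measured basement membrane and fibrillar matrix genes. All genes but Hspg2 stand below 0 with BMP4, and Fn1, Lama1 and Lamc1 stand at 0.28, 0.27 and 0.25 with noggin.

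The receptors of fibronectin did not share a direction with BMP4. Of 8 genes with Fn1 included, 3 were higher and 5 lower, where 24.8% of all measured genes were higher and 35.6% lower. With Fn1 left out, 3 of 7 were higher and 4 lower. Itgb1, the common beta chain, was at 0.11, Sdc2 (a syndecan) at 0.11 and Itga5, the chain of the classical fibronectin receptor, at −0.01. Itgav and Itgb5, chains of vitronectin receptors, were at −0.13 each. With probe sets averaged 1 of 7 was higher with BMP4 and 6 lower. With noggin 6 of the 8 were higher, where 26.8% of all measured genes were, with Itgb5 at 0.15 after Fn1. That direction turned with probe sets averaged, at 2 of 7 higher and 4 lower. Of 5 genes around Thbs1, the endoplasmic reticulum chaperone gene Calr was highest with BMP4 at 0.12, and the receptor gene Cd47 differed by −0.03.

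Among the matricellular genes outside the CCN family, 6 of 9 measured were lower with BMP4, 1 higher and 2 equal, with a median of −0.08. These 9 include the member Thbs1. With Thbs1 left out, 5 of 8 were lower, 1 higher and 2 equal, with a median of −0.07, where 35.6% of all measured genes were lower. Fbln2 (fibulin 2) measured 4.12 with BMP4, 4.56 with noggin and 4.49 untreated, a difference of −0.37. Postn (periostin) was at −0.32, from 3.00 with BMP4, 3.55 with noggin and 3.32 untreated, so that it passed the floor on the noggin array alone. Tnc (tenascin C) was at −0.18, Sparc at −0.08 and Thbs3 at 0.03. Tgfbi and Fbln1 were equal on all arrays.

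Several of the lower members, S100a4 among them, are also expressed by fibroblasts, which can be present as a feeder layer. Of 20 fibroblast markers on the array, 13 were above the floor with BMP4, 14 with noggin and 13 untreated. Their summed linear level was 1532 with BMP4, 1579 with noggin and 1555 untreated, and Vim, which embryonic stem cells also express, accounts for most of it at 10.15, 10.16 and 10.14. The collagen genes Col1a1 and Col3a1, as well as Fap, Lum, Prrx1 and Twist2, were below the floor on every array. Col1a2 measured 4.02 with BMP4 and 4.18 on both other arrays. Over the 14 measured markers, which include the member S100a4, 2 were higher with BMP4, 7 lower and 5 equal, with a median of −0.01. With S100a4 left out, 2 were higher, 6 lower and 5 equal, with a median of 0.00, where 35.6% of all measured genes were lower. After S100a4 the lowest were Fbln2 at −0.37, Postn at −0.32 and Tagln at −0.22. With noggin 6 were higher, 7 equal and 1, S100a4, lower, where 26.8% of all measured genes were higher. In BMP4 minus noggin 0 were higher, 9 lower and 5 equal, with a median of −0.15, the direction of the basement membrane genes. With S100a4 left out, 8 were lower and 5 equal there, where 34.1% of all measured genes were lower. Fewer cells of a type and less RNA per cell cannot be told apart in such bulk RNA, and the part of these genes in the lower members was not tested. Of 10 primitive endoderm markers 8 were above the floor on every array. With BMP4, where 24.8% of all measured genes were higher and 35.6% lower, 4 of those 8 were higher, 3 lower and 1 equal. The median was 0.04. The higher ones were transcription factor genes: Sox7 measured 4.73 with BMP4, 3.84 with noggin and 3.74 untreated, a difference of 0.99, and Gata6 differed by 0.52, Hnf4a by 0.13 and Sox17 by 0.08. The 3 lower markers, Lama1, Col4a1 and Sparc, encode matrix proteins. They make up most of the summed level of the list, which was 1163 with BMP4, 1266 with noggin and 1205 untreated, and the part of these cells in the members' values was not tested.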

How the data were processed

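The deposited table holds log2 values of expression, 1 per probe set and array, made by RMA according to the submitters' processing notes. RMA corrects background, quantile-normalizes the arrays and summarises each probe set by median polish. The sources used here name no version, settings or genome build. Quantile normalization hides a general shift in RNA content, and median polish over 3 arrays returns many exactly equal values: 26.1% of probe sets had 1 value on all arrays, so a difference of 0.00 can hide a small one. RNA was labelled with biotin by standard Affymetrix steps, per the labels' protocols.

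Values were used as deposited. Of 45101 probe sets, 34945 were paired with 1 gene symbol, 932 with several, which were not used for naming, and 64 were controls. All symbols matched through Entrez Gene to RefSeq (GRCm38.p6), for 34741 probe sets, were current. Differences were computed with Python 3.11.15, numpy 2.4.6 and pandas 2.3.3, and loess with statsmodels 0.14.6. The computation was tested on simulated data. With 1 array per group there was no test. Sizes of 1.5-fold and 2-fold were used as limits, and measured genes were those above the floor of 3.44, which left 11594 genes.

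The members and the gene lists were chosen with earlier results of these data known. Named genes were all members, the 2 nearest genes of each member that differed by at least 0.5 with BMP4, and, of each list, genes past 1.5-fold or with the largest difference in either direction; others, such as further receptors and family members, were named after their values were seen. Protein sequences were not used here. Alternatives were other floors, other representatives of a gene, centred or loess-corrected differences and the 2-fold limit.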

Additional observations from a re-analysis of the deposited data

How the results depend on the processing

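With 1 array per group no replicate could be left out, no paired analysis was possible because no group had more than 1 array, and the number of arrays limits every value. For single members, 101 recomputed differences moved by less than the SD among probe sets of a gene and 13 by more. Median-centring and loess correction moved 0 of them by more, and no member past 1.5-fold changed sign. Centring could move none, because the median of all measured genes was 0.00 in every comparison. Averaging could not move Ccn2, Coch, Ackr3 and S100a4, which have 1 probe set each. It moved 4 of the 10 BMP4 differences by more than the SD, so the count of 101 is no measure of stability. Averaging all probe sets gave BMP4 differences of 0.19 for Ccn1, −0.59 for Bgn, −0.41 for Anxa1 and −0.40 for Pdgfc, and noggin differences of −0.11 for Ccn1, −0.22 for Anxa1 and 0.10 for Fn1. Ccn1 was thus turned with noggin, through probe sets below the floor, and with plain-suffix probe sets alone it was 0.00 with BMP4 and −0.40 with noggin. BMP4 minus noggin became 0.31 for Ccn1, −0.56 for Bgn and −0.19 for Anxa1 when averaged, and 0.40 for Ccn1 with plain suffixes.

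Members at least 1.5-fold lower with BMP4 numbered 1 with the floor at the 75th percentile and 0 at 2-fold, in place of 3. In BMP4 minus noggin they numbered 1 with averaged probe sets, 1 with plain suffixes, 0 with the higher floor and 0 at 2-fold, in place of 2. Members higher in that comparison numbered 1 at 2-fold, in place of 2. The higher floor leaves out Bgn and Ackr3, and Ackr3 has no plain-suffix probe set. Over all measured genes, the 26 higher with BMP4 became 17 with averaged probe sets and 11 at 2-fold, and the 6 lower became 3 with the higher floor and 1 at 2-fold. With noggin the 1 higher became 0 with the higher floor and 0 at 2-fold. The 8 lower with noggin became 4 with averaged probe sets, 64 with no floor, 1 with the higher floor and 0 at 2-fold. In BMP4 minus noggin the 44 higher became 102 with no floor, 20 with the higher floor and 13 at 2-fold, and the 16 lower became 10 with averaged probe sets, 6 with the higher floor and 1 at 2-fold.

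For the basement membrane and fibrillar matrix genes, alternatives chosen after seeing the data gave 9 to 15 lower with BMP4 and 8 to 12 higher with noggin, among 10 to 17 genes. In BMP4 minus noggin 10 to 15 were lower, with 2 of 17 higher when no floor was set. With averaged probe sets 3 of 12 were higher with BMP4 and 2 of 12 lower with noggin. The alternative values given for the YAP-TEAD, fibronectin receptor, Ackr3 and fibroblast marker lists were likewise chosen after seeing the data.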

Other observations

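Matrix proteases and their inhibitors, which turn over the matrix that the members belong to, had 11 measured genes. With BMP4 1 was higher, 4 were lower and 6 equal, where 24.8% of all measured genes were higher and 35.6% lower. Timp2, a metalloproteinase inhibitor, was lowest, at 5.59 with BMP4, 5.83 with noggin and 5.88 untreated, a difference of −0.29. Mmp14, a membrane-bound metalloproteinase, was highest at 0.12 and was lower with noggin, also by 0.12. No gene of the list reached 1.5-fold.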
